A study of Ovis aries with 15 samples.

Results

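The transcripts described here are those of 15 genes known from the sheep placenta: pregnancy-associated glycoproteins (PAG3 to PAG11), trophoblast Kunitz domain proteins (TKDP1, TKDP2, TKDP3 and TKDP5), prolactin-related protein 2 (PRP2) and placental lactogen. They were taken by name or description from the annotation of an ovine Agilent array and were read by 26 of its 15008 probes, with 1 spot per probe. The array carries 1029 gene names in all. The tissue was the kidney cortex of sheep fetuses fitted with catheters, at 125 ± 3 days of gestation, with 1 array for each fetus. The fetuses underwent 30 min of maternal ventilatory hypoxia with ketamine (4 fetuses) or with saline vehicle (4 fetuses), or 30 min of normoxia with ketamine (4 fetuses) or with vehicle (3 fetuses). Ketamine, an anaesthetic that blocks NMDA receptors, was given to the fetus intravenously at 3 mg/kg, 10 min before hypoxia. The cortex was taken 24 h after the exposure began.

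Pregnancy-associated glycoproteins are secreted members of the aspartic proteinase family, made by the trophoblast cells that form the outer layer of the ruminant placenta, and several are measured in maternal blood as a sign of pregnancy. Placental lactogen is a hormone of the prolactin and growth hormone family made by the binucleate cells of the trophoblast and released to mother and fetus. The prolactin-related proteins belong to the same hormone family, and the Kunitz domain proteins resemble inhibitors of serine proteinases. All are known from placenta rather than from kidney.

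Signals are the processed intensities of the scanner software, in scanner units, and "detected" means that the software marked the spot as well above background. The lowest signal so marked was 6.97 to 10.9 on 14 arrays and 18.7 on hypoxia ketamine replicate 4. Signals of spots not so marked have no order. The 75th percentile of an array's signal lay between 1058 and 1425, so the signals of the placental probes are low on this array. Between 81.0% and 85.2% of all probes were detected on 14 arrays, and 75.6% on hypoxia ketamine replicate 4. The arrays filled 2 slides, with 8 arrays on slide 1 and 7 on slide 2. Precision is limited by the number of arrays.

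The sequences of 3 PAG probes are shown first, because these 3 were detected on nearly every array while most of the other PAG probes were not. They read the same stretch of 3 different transcripts, starting at base 902 of the PAG10 and PAG11 transcripts and at base 920 of the PAG6 transcript. The 60-base sequences are those of the array design, written 5′ to 3′ with the bases shared by all 3 in capitals.
PAG10, probe A_70_P012601: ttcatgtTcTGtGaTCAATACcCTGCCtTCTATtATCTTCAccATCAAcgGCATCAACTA
PAG11, probe A_70_P050941: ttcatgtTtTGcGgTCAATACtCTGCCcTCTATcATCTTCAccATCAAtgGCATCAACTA
PAG6, probe A_70_P030092: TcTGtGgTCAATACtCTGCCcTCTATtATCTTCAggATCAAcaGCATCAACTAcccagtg
The 3 probes overlap over 53 bases, of which 43 are the same in all 3. The longest run shared without a mismatch was 21 bases, between the PAG11 and PAG6 probes. These probes may therefore take up one another's transcripts, which was not tested.

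A probe pair with nearly the same sequence is shown because its 2 spots did not give the same pattern. The pair starts at base 853 of the PAG4 and PAG7 transcripts, and capitals mark the 2 of 60 bases that differ.
PAG4, probe A_70_P051371: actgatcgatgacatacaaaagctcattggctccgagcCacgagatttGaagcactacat
PAG7, probe A_70_P030102: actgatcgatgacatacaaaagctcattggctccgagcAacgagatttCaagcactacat
By contrast, the PAG3 and PAG9 probes below were detected on the same 3 arrays as placental lactogen and on no other. They share no run of 12 bases with each other or with the probes above.
PAG3, probe A_70_P030061: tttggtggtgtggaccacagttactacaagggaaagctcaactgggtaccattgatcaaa
PAG9, probe A_70_P039406: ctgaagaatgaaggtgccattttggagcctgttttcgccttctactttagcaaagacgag

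Placental lactogen, read by 1 probe, was detected on 3 of the 15 arrays. Its signal was 3.35, 19.3, 2.24 and 4.95 in the hypoxic ketamine fetuses (replicates 1 to 4) and 2.1, 2.62, 2.45 and 2.32 in the hypoxic vehicle fetuses. It was 169, 110, 1.94 and 2.6 in the normoxic ketamine fetuses, against 2.45, 4.05 and 2.79 in the normoxic vehicle fetuses. The detected arrays were hypoxia ketamine replicate 2 and normoxia ketamine replicates 1 and 2. Within each ketamine group fetuses with and without a detected signal thus stood side by side. The detection limit of hypoxia ketamine replicate 4, 18.7, was close to the 19.3 of replicate 2. No vehicle fetus had a detected signal. In a block of tissue, fewer cells of a type and less RNA per cell cannot be told apart.

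The number of detected placental probes set the same 3 arrays apart. Of the 26 probes, 12 were detected in hypoxia ketamine replicate 2, 14 in normoxia ketamine replicate 1 and 15 in normoxia ketamine replicate 2. On each of the other 12 arrays between 1 and 5 were detected. By the scanner's laxer flag, positive and significant, hypoxia ketamine replicate 2 had 16, as did hypoxia vehicle replicate 4, so it was not set apart by that count, while normoxia ketamine replicates 1 and 2 had 20 and 18. All 3 arrays lay on slide 1, which also held 5 arrays with at most 5 detected probes. The part of the slide in this pattern was not tested. The genes were selected on their signals on these arrays, so the pattern is given as a description, with no test.

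**Figure D1:**
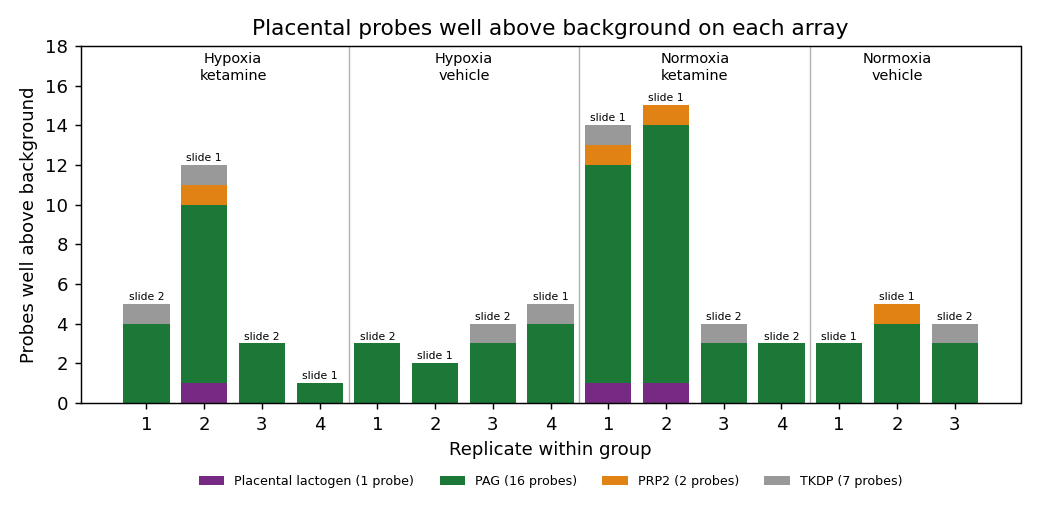
Number of the 26 placental probes well above background on each array (bars, stacked by gene family; 1 bar per fetus, groups from left to right). Hypoxia ketamine replicate 2 has 12 and normoxia ketamine replicates 1 and 2 have 14 and 15, while the other 12 arrays have 1 to 5.

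Among the PAG genes, PAG3 followed placental lactogen most closely. Its probe at base 674 had a signal of 1.58, 13.7, 2.07 and 4.16 in hypoxic ketamine and of 1.9, 2.45, 2.15 and 2.01 in hypoxic vehicle fetuses. Normoxic ketamine fetuses had 73.1, 76.5, 1.7 and 2.53, against 2.12, 2.08 and 2.6 in normoxic vehicle fetuses. The same 3 arrays were detected, and the dim arrays of every group lay at one another's level. A second PAG3 probe, at base 490, was detected in normoxia ketamine replicates 1 and 2 alone, at 29.4 and 19.4, and its 6.38 in hypoxia ketamine replicate 2 did not pass.

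PAG9 was detected on those 3 arrays and no other by its probe at base 590. The signals were 4.01, 18.3, 1.74 and 3.76 in hypoxic ketamine and 1.67, 3.84, 2.06 and 4.33 in hypoxic vehicle fetuses. They were 88.7, 107, 2.19 and 4.6 in normoxic ketamine fetuses, against 4.78, 4.03 and 2.16 in normoxic vehicle fetuses. The other PAG9 probe, at base 468, was detected on no array and ranged from 1.7 to 5.47. A probe that stayed dim on an array where its partner was bright occurred for several PAG genes, as described below.

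PAG6 was read by the probe at base 920 shown above and by one at base 1018. The probe at base 1018 was detected on the placental lactogen arrays and on no other, with 24.7 in hypoxia ketamine replicate 2 and 101 and 96 in normoxia ketamine replicates 1 and 2. The next highest signal was 9.25, in normoxia ketamine replicate 4, and was not detected. The probe at base 920 had 18, 65.5, 17.4 and 16.7 in hypoxic ketamine and 19.9, 11.5, 14.1 and 19.5 in hypoxic vehicle fetuses. It had 282, 281, 16.4 and 12.6 in normoxic ketamine fetuses, against 22.4, 18 and 16.5 in normoxic vehicle fetuses. This probe therefore had a low signal on all arrays, detected on 13 of 15, and the same 3 arrays rose out of it.

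PAG10 and PAG11 showed that low signal too, in probes of the same stretch. PAG10 at base 902 had 13.1, 60.9, 22.4 and 16.1 in hypoxic ketamine and 15.5, 14.3, 15.8 and 26.5 in hypoxic vehicle fetuses. Its signals were 159, 194, 15.5 and 20.2 in normoxic ketamine fetuses, against 15.5, 15.8 and 10.5 in normoxic vehicle fetuses. PAG11 had 26.8, 75.3, 29.9 and 15.6 in hypoxic ketamine and 22.1, 21, 24.3 and 35.1 in hypoxic vehicle fetuses. It had 229, 258, 26.9 and 33.1 in normoxic ketamine fetuses, against 27.9, 29.2 and 29.5 in normoxic vehicle fetuses. PAG10 was detected on 13 arrays and PAG11 on 14, and in both the 3 highest arrays were those of placental lactogen. The second PAG10 probe, at base 810, was detected in normoxia ketamine replicate 2 alone, at 11.5.

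PAG7 had the highest single signal of all the placental probes. At base 1109 it had 12.1, 66.1, 4.67 and 7.62 in hypoxic ketamine and 7.26, 6.47, 5.81 and 6.13 in hypoxic vehicle fetuses. Normoxic ketamine fetuses had 302, 428, 9.1 and 10.6, against 6.01, 12 and 3.04 in normoxic vehicle fetuses. The fourth array on which it was detected was hypoxia ketamine replicate 1, at 12.1.

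PAG8, read at base 916, had 5.34, 25, 3.43 and 6.14 in hypoxic ketamine and 5.22, 10.6, 3.84 and 12 in hypoxic vehicle fetuses. The signals were 64.9, 63, 2.2 and 6.76 in normoxic ketamine fetuses, against 11.9, 9.36 and 8.5 in normoxic vehicle fetuses. It was detected on the 3 placental lactogen arrays and, at 12, in hypoxia vehicle replicate 4. The PAG8 probe at base 490 was detected nowhere and ranged from 2.03 to 6.08.

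PAG4 and PAG5 followed the pattern in part or not at all. PAG4 at base 721 was detected in normoxia ketamine replicates 1 and 2, at 21 and 29.6, and its 2.49 in hypoxia ketamine replicate 2 was at the level of the dim arrays. PAG5 was detected in hypoxia ketamine replicate 2 at 10.4, in normoxia ketamine replicate 1 at a slightly lower signal and in normoxia vehicle replicate 2 at 12.3. Its other arrays had 1.99 to 8.81, so PAG5 did not separate the 3 arrays from the rest.

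PRP2 followed the pattern in the normoxic ketamine fetuses. Its probe at base 831 had 5.89, 10.7, 4.59 and 5.32 in hypoxic ketamine and 8.57, 7.13, 5.37 and 6.64 in hypoxic vehicle fetuses. Normoxic ketamine fetuses had 27.8, 22.3, 6.42 and 7.99, against 7.16, 10.2 and 11.2 in normoxic vehicle fetuses. Besides the 3 arrays it was detected in normoxia vehicle replicate 2, so hypoxia ketamine replicate 2 did not stand clear of the normoxic vehicle group here. The probe at base 543 was detected on no array.

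The Kunitz domain transcripts did not share the pattern. TKDP2 (2 probes) and TKDP3 (1 probe) were detected on no array. TKDP5 at base 1939 had 9.31, 12.5, 8.6 and 4.73 in hypoxic ketamine and 9.84, 7.36, 19.3 and 14.4 in hypoxic vehicle fetuses. It had 20.6, 8.76, 24.1 and 5.25 in normoxic ketamine fetuses, against 11.6, 9.43 and 3.43 in normoxic vehicle fetuses. Its highest array, normoxia ketamine replicate 3, had 1.94 for placental lactogen, and 6 arrays of 3 groups were detected. The other TKDP5 probe, at base 1451, was detected nowhere.

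**Figure D2:**
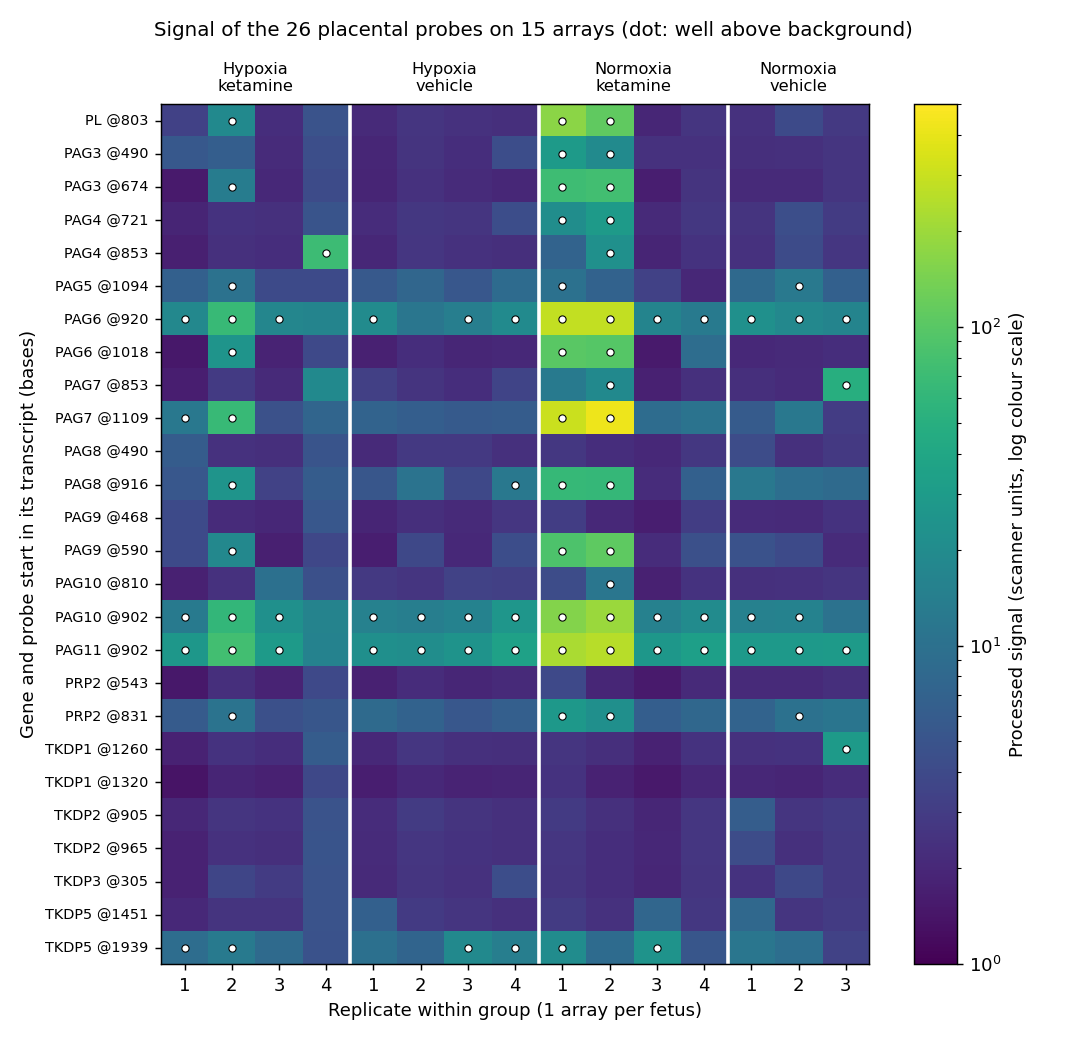
Processed signal (colour, log scale, scanner units) of each placental probe (rows, named by gene and by the probe's first base in its transcript, PL for placental lactogen) on each array (columns, by group and replicate). White dots mark spots well above background. The columns of hypoxia ketamine replicate 2 and of normoxia ketamine replicates 1 and 2 are bright across most PAG rows and the PL row, and the TKDP rows are not.

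Another 3 spots were bright on an array without detected placental lactogen. PAG4 at base 853 had 71.7 in hypoxia ketamine replicate 4 and 22.9 in normoxia ketamine replicate 2, and was detected on no other array. Its near twin, PAG7 at base 853, had 19.1 in normoxia ketamine replicate 2 and 49 in normoxia vehicle replicate 3, and was detected nowhere else. In hypoxia ketamine replicate 4 the PAG7 spot had 19, not detected, and in normoxia vehicle replicate 3 the PAG4 spot had 2.68, although the 2 sequences differ at 2 of 60 bases. TKDP1 at base 1260 had 29.4 in normoxia vehicle replicate 3, at most 6.1 elsewhere, and its partner at base 1320 had 2.21 there. Each of these values rests on a single spot.

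**Figure D3:**
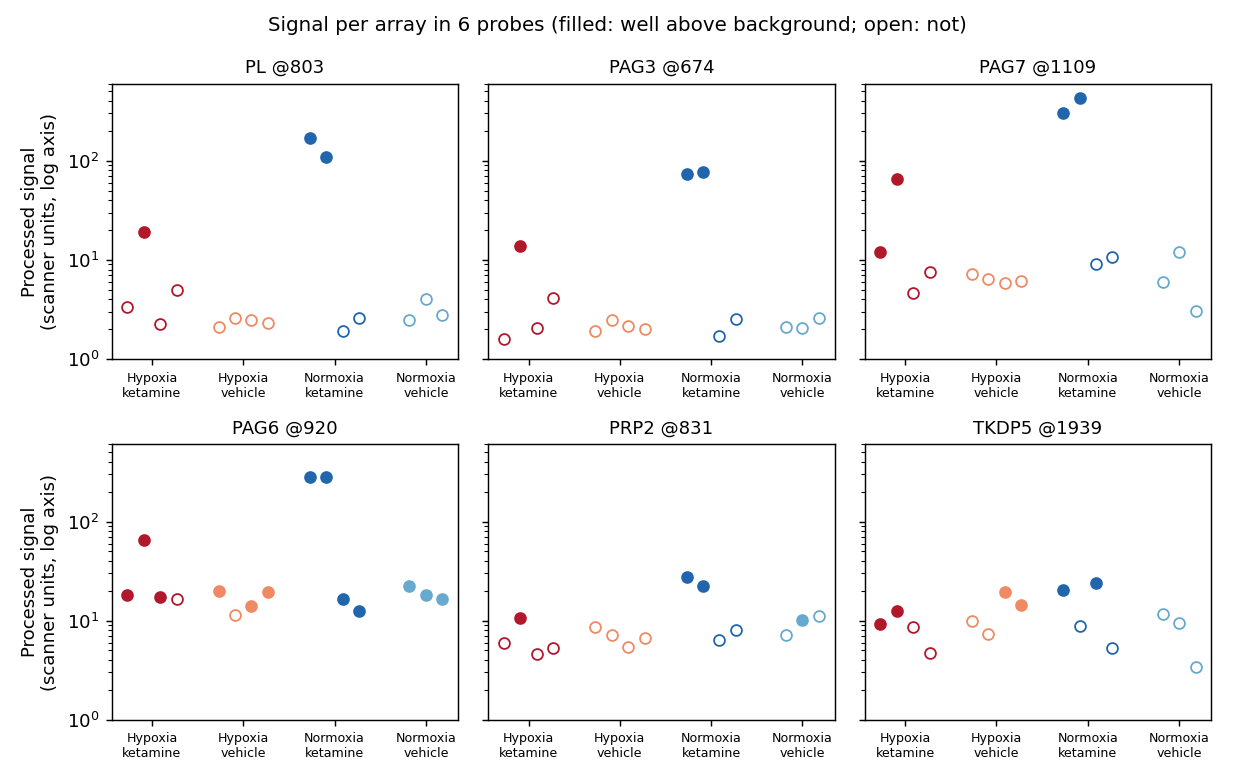
Processed signal of 6 placental probes in each fetus (log axis, scanner units; 1 point per array; filled points are well above background, open points are not and have no order among them). Placental lactogen (PL), PAG3 and PAG7 are high in the same 3 ketamine fetuses, PAG6 at base 920 has a signal of 11.5 to 22.4 in the others, and TKDP5 does not separate these fetuses.

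The position of the probe in the transcript went with detection. For PAG3, PAG8, PAG9, PAG10 and PRP2 the probe nearer the 3′ end was detected on more arrays than its partner. For PAG7 and TKDP5 the same held, with 4 arrays against 2 and 6 arrays against 0. PAG6 went the other way, with 13 arrays at base 920 and 3 at base 1018, as did TKDP1, with 1 array at base 1260 and 0 at base 1320. Both PAG4 probes were detected on 2 arrays. Labelling of this kind primes at the poly(A) tail, and its part in these differences was not tested. A gene's level was therefore read from each probe by itself.

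The likeness of every probe to the placental lactogen probe was measured as Pearson's r of the log2 signals over the 15 arrays, among the 13604 other probes detected on at least 1 array. The median r was 0.06, and the 99th percentile was 0.64. Of the 10 probes with r of at least 0.9, 8 were PAG probes, and of the 22 with r of at least 0.8, 11 were PAG or PRP2 probes. PAG3 at base 674 came first with r = 0.99 (Spearman's rho 0.64), followed by PAG6 at base 920 with 0.97 (rho 0.29) and PAG9 with 0.97 (rho 0.65). PAG7 had 0.96, PAG6 at base 1018 had 0.95, and PAG10 and PAG11 had 0.94. These arrays fall into a low and a high cluster, so r mainly records that the same arrays are high, and no p is given.

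Without normoxia ketamine replicates 1 and 2, the 2 arrays farthest from the median, r rests on hypoxia ketamine replicate 2. It was then 0.91 for PAG3 at base 674, 0.81 for PAG7 and for PAG9, 0.78 for PAG6 at base 1018, 0.65 for PAG10 and 0.53 for PAG11. For PRP2 it fell to 0.27, against 0.86 over all arrays, and for PAG4 at base 721 to 0.02, against 0.87. PAG5 had r = 0.38, TKDP5 0.19 and TKDP1 -0.06 over all arrays.

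**Figure D4:**
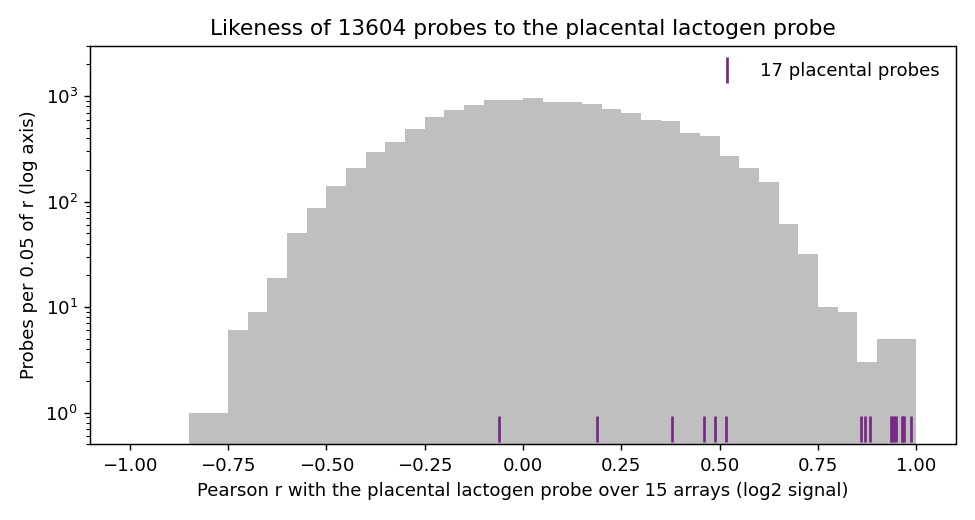
Distribution of Pearson's r with the placental lactogen probe over 15 arrays for 13604 probes (grey, number of probes on a log axis), with 17 placental probes as ticks. Of these, 11 lie at 0.86 or above, where few other probes are found, and TKDP1, TKDP5 and PAG5 lie lower.

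Outside the family, the named gene most like placental lactogen was LOC443348, which the array describes as a pregnancy-specific antigen. Its probe A_70_P051237 had r = 0.93 and was detected in normoxia ketamine replicates 1 and 2, at 44 and 142, with 7.14 in hypoxia ketamine replicate 2 and at most 4.51 elsewhere. This probe shares a run of 16 bases with the PAG7 probe at base 1109. A second LOC443348 probe, A_70_P051236, had 33.1 and 125 on the same 2 arrays and 21.4 in hypoxia vehicle replicate 1. LGALS15, a galectin of the sheep uterine lining, followed with r = 0.74. It was detected in normoxia ketamine replicate 1 alone, at 54.6 and 65.5 by 2 probes, while 2 further probes of that name, drawn from another sequence, were detected in hypoxia ketamine replicate 4 alone, at 21.5 and 39.

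The remaining 8 of the 10 named genes most like placental lactogen were detected on all arrays, with r from 0.74 down to 0.67. They were SLC25A5 (a mitochondrial ADP/ATP carrier), LOC443402, GRIA3 (a glutamate receptor subunit), ATP1B1 (a sodium pump subunit), LOC100037702, PPIA (a peptidyl-prolyl isomerase), HACD1 and EIF1AX (a translation initiation factor). SLC25A5 had 32493 in hypoxia ketamine replicate 2 and 22752 and 24919 in normoxia ketamine replicates 1 and 2, and between 12641 and 20505 on the others. Their differences between arrays were small beside those of the PAG probes.

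Besides placental lactogen, 5 of the 15008 probes were detected on exactly the same 3 arrays. They were PAG3 at base 674, PAG6 at base 1018, PAG9 at base 590 and 2 expressed sequence tags with no gene name in the annotation. One of the tags, EE849379, had 13.1 in hypoxia ketamine replicate 2 and 79.7 and 286 in normoxia ketamine replicates 1 and 2. The other, CN822849, had 12.6 and then 18.5 and 11 on these arrays. In all, 162 probes were detected on exactly 3 arrays.

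The ratio of signals between the 3 arrays was given for each probe. Over the 10 placental probes detected on all 3, signals scaled to the array's 75th percentile gave a ratio of hypoxia ketamine replicate 2 to normoxia ketamine replicate 1 with a median of 0.223 and a range from 0.107 for placental lactogen to 0.36 for PAG8. The ratio of normoxia ketamine replicate 2 to replicate 1 ranged from 0.783 for placental lactogen and 0.963 for PRP2 to 1.7 for PAG7, with a median of 1.22. All 8 PAG probes lay above 1, between 1.14 and 1.7, and the 2 hormone family probes below it. This split depends on the scaling. Unscaled, replicates 1 and 2 had 282 and 281 for PAG6 at base 920, 101 and 96 at base 1018, and 64.9 and 63 for PAG8. LOC443348 had ratios of 3.87 and 4.51 between these 2 arrays. With 1 spot per probe and 1 array per fetus, these ratios have no replicate check, and whether they differ between genes was not tested.

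**Figure D5:**
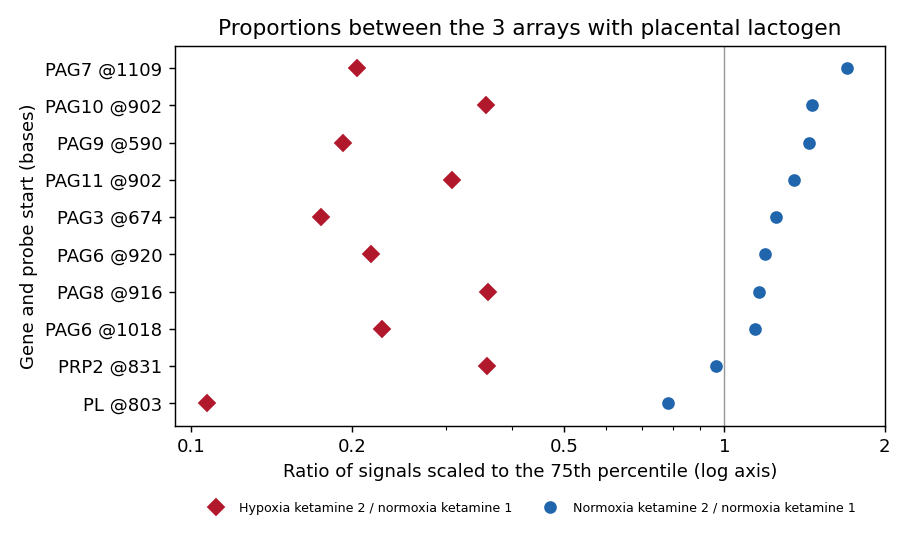
Ratios of scaled signal between the arrays with placental lactogen for the 10 placental probes detected on all 3 (log axis; diamonds, hypoxia ketamine replicate 2 over normoxia ketamine replicate 1; circles, normoxia ketamine replicate 2 over replicate 1). Circles run from 0.783 for placental lactogen (PL) to 1.7 for PAG7, and diamonds from 0.107 to 0.36.

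The 4 group comparisons and their interaction were fitted in limma to all probes detected on at least 3 arrays. Of the 26 placental probes 12, of 11 genes, met that filter. Of these 5 were detected on ketamine arrays alone and passed the filter through the arrays where they were high, so the counts are a description. At the study's threshold, an unadjusted p of up to 0.05, ketamine against vehicle in normoxic fetuses called 4 of the 12, all higher with ketamine, where 2.69% of the 12923 probes were called. Hypoxia against normoxia in ketamine fetuses called 2, both lower after hypoxia, where 8.67% were called. Hypoxia against normoxia in vehicle fetuses called 0 (16.2% of all probes), ketamine against vehicle in hypoxic fetuses 0 (5.99%) and the interaction 0 (3.11%). After Benjamini-Hochberg adjustment 0 placental probes were called in any comparison, where 0.0155% of all probes were called for hypoxia against normoxia in vehicle fetuses and 0% in the other comparisons and the interaction. Both comparisons with calls hold the same 4 normoxic ketamine arrays.

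The 4 calls in normoxic fetuses were PAG7 at base 1109, PAG6 at base 1018, PAG10 at base 902 and PAG11. PAG7 and PAG6 at these bases were detected in 2 of 4 normoxic ketamine and 0 of 3 normoxic vehicle fetuses. Their fitted log2 changes, 3.39 and 3.27, rest on signals without order in the other fetuses and on the arrays through which the probes entered the fit, so nothing is read from them. PAG10 was higher by a log2 change of 2.11 ± 0.79 (SE, 4 against 3 fetuses, unadjusted p = 0.0189, adjusted p = 1) and PAG11 by 1.65 ± 0.72 (unadjusted p = 0.0393, adjusted p = 1). The genes were selected on their signals on these arrays, so these p values are no support for a group difference. Normoxia ketamine replicates 3 and 4 had 15.5 and 20.2 for PAG10, against 10.5 to 15.8 with vehicle. For PAG11 they had 26.9 and 33.1, against 27.9 to 29.5. Placental lactogen, also detected on ketamine arrays alone, was not called. In each of these genes normoxia ketamine replicates 1 and 2 were the highest of the 7 normoxic fetuses.

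None of the 4 calls was kept when normoxia ketamine replicate 1 or 2 was left out. The log2 change was then 1.65 or 1.47 for PAG10 and 1.21 or 1.07 for PAG11. No change is given for PAG6 and PAG7, which were detected in 0 of 3 normoxic vehicle fetuses. Without normoxia vehicle replicate 3 the calls of PAG10 (1.98), PAG11 (1.72) and PAG7 were lost. PAG11 was also lost without normoxia vehicle replicate 1 (1.64) or 2 (1.58). Without the 3 arrays with placental lactogen the changes were 0.44 for PAG10 and 0.12 for PAG11, and none of the 4 was called. With slide as a block 8 placental probes were called higher, where 3.16% of all probes were called. Within slide 1, where the normoxic ketamine arrays were replicates 1 and 2, the number was 10 (1.92% of all probes). Slide 2 held normoxia ketamine replicates 3 and 4, and replicate 3 was its sole normoxic vehicle array. There the log2 change was 0.71 for PAG10 and -0.03 for PAG11. Holding to 1 slide thus also selects the high or the dim normoxic ketamine arrays, and the 2 cannot be told apart.

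The 2 calls of hypoxia against normoxia in ketamine fetuses were PAG11 and PRP2. PAG11 had a log2 change of -1.54 ± 0.67 (SE, 4 fetuses each, limma, unadjusted p = 0.0383, adjusted p = 0.54). The genes were selected on their signals on these arrays, so this p is no support for a group difference. PRP2 was detected in 1 of 4 hypoxic and 2 of 4 normoxic ketamine fetuses. Its fitted change, -1.18, rests on signals without order in the others, so nothing is read from it. Without normoxia ketamine replicate 1 or 2 the change of PAG11 became -1.10 or -0.95, and neither gene was called. PAG11 was also not called without hypoxia ketamine replicate 1 (-1.46), 3 (-1.52) or 4 (-1.24). Without the 3 arrays with placental lactogen the change of PAG11 was -0.39, and neither gene was called. With slide as a block 6 placental probes were called lower (8.99% of all probes called), and within slide 1 10 were (4.75%). Within slide 2 the log2 change of PAG11 was -0.14. The normoxic ketamine arrays were replicates 1 and 2 on slide 1 and replicates 3 and 4 on slide 2, so slide and arrays cannot be told apart here.

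The authors' deposited table of log2 values holds 2 of the 26 placental probes, PAG10 at base 902 and PAG11. PAG10 read 6.42 in 1 hypoxic ketamine column and 5.80 to 5.97 in the other 3, and 5.68 to 5.93 in hypoxic vehicle columns. It read 8.08 and 7.59 in 2 normoxic ketamine columns and 5.93 and 5.58 in the others, against 5.59 to 5.62 in normoxic vehicle columns. PAG11 had 6.51 in the same hypoxic ketamine column and 8.42 and 7.97 in the same normoxic ketamine columns, and between 5.71 and 6.06 in all others. The 3 high columns thus had the group labels seen in the scanner signals. Of the 15 columns 12 tracked another array of their own group, so the replicate numbers here are those of the scanner signals.

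Other cell types were read through lists of marker genes. The 5 kidney genes summed here were detected on all 15 arrays: AQP1, AQP2 and AQP3 (water channels), SLC34A1 (a proximal tubule phosphate transporter) and WT1 (a podocyte factor). Their summed signal, scaled to the 75th percentile, was 25608 in hypoxia ketamine replicate 2 and 23470 and 24557 in normoxia ketamine replicates 1 and 2. By group it ranged from 18179 to 25608 (hypoxic ketamine), 18734 to 24890 (hypoxic vehicle), 20448 to 24557 (normoxic ketamine) and 18603 to 23937 (normoxic vehicle). These ranges include the 3 arrays, and hypoxia ketamine replicate 2 and normoxia ketamine replicate 2 were the highest of their groups.

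Of 32 further genes of trophoblast and placenta, 10 were found on the array under the symbols searched. PAPP-A and a trophoblast interferon were there under other names, are given below and are not in the sum. CYP11A1, the enzyme that begins steroid synthesis, and CGA, the shared subunit of glycoprotein hormones, were detected on no array. STAR, a cholesterol carrier of steroid-producing cells, was detected on 2 arrays, neither of them among the 3. CYP17A1, HAND1, TFAP2A, GATA3, ETS2 and SLC2A3 were detected on all arrays, and several of these are also expressed in kidney. Without IGF2, whose spot was omitted on normoxia ketamine replicate 1, the summed signal was 15373 to 24355 (hypoxic ketamine), 19492 to 72208 (hypoxic vehicle), 13813 to 18365 (normoxic ketamine) and 15198 to 16318 (normoxic vehicle). It was 24355 in hypoxia ketamine replicate 2 and 14267 and 14703 in normoxia ketamine replicates 1 and 2. The sum was mostly SLC2A3 (4761 to 48694 unscaled), GATA3 (3312 to 8088) and ETS2 (2010 to 11444). PAG signals reached at most 428, and a change of that size would not show in this sum, so nothing is read from it. Among transcripts looked up after the values were known, PRP1, a second prolactin-related protein, was detected on no array by either of its probes. PAPP-A was detected on 14 arrays by one probe. It had 89.8 in hypoxia ketamine replicate 2 and 78.2 and 37.8 in normoxia ketamine replicates 1 and 2, against 20 to 120 on the others. Its other probe, detected on 15 arrays, had 92.1, 79.6 and 29.3, against 16.9 to 121. The trophoblast interferon named OTP-1 P12 was detected on 14 arrays by one probe. It had 41.1 in hypoxia ketamine replicate 2 and 24.5 and 25.1 in normoxia ketamine replicates 1 and 2, against 16.6 to 28.9 on the others. Its other probe, detected on 8 arrays, had 16.8, 13.8 and 15.9 on these arrays, within the 4.08 to 26.9 of the others.

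Pituitary hormones of the placental lactogen family were low. Growth hormone was detected on no array, and prolactin had 23.1 in hypoxia ketamine replicate 2 and 23.3 and 12 in normoxia ketamine replicates 1 and 2, against 5.28 to 21.7 on the other arrays. In RefSeq's sheep annotation (assembly ARS-UI_Ramb_v3.0) 1 protein-coding gene lies between the placental lactogen and prolactin genes. Of the 15 placental genes 9 are found there, and PAG11, PAG9 and PAG6 share a chromosome.

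Of 14 uterine genes, 7 were on the array. GRP, a peptide made by uterine glands, had 656 in hypoxia ketamine replicate 2 and 307 and 870 in normoxia ketamine replicates 1 and 2, against 89.7 to 439 on the others. SERPINA14, the uterine milk protein, had 8526 and then 384 and 3559 on these arrays, within the 334 to 13518 of the others. The list's summed signal ran from 5827 to 18980 (hypoxic ketamine), 12082 to 18715 (hypoxic vehicle), 5020 to 9336 (normoxic ketamine) and 4577 to 8866 (normoxic vehicle). The 3 arrays had 14964, 5197 and 9336. The part of uterine or placental material in the PAG signals was not tested.

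Blood markers did not follow the pattern. The sum of HBB and AHSP, a haemoglobin chain and its chaperone, was 72160 in hypoxia ketamine replicate 2, the highest of the 15 arrays, and 36162 and 10958 in normoxia ketamine replicates 1 and 2, the second of these the lowest. Leukocyte genes (7 of 13 on the array) summed to 5040, 1589 and 1254 on these arrays, against 1754 to 5040 in all hypoxic ketamine, 1478 to 5810 in hypoxic vehicle, 1254 to 1589 in normoxic ketamine and 1420 to 1451 in normoxic vehicle fetuses. Liver genes (4 of 6) summed to 29847, 25583 and 27762, against a range of 12383 to 29847 over all arrays. The 4 highest sums were those of these 3 arrays and of normoxia ketamine replicate 3 (29497). The sums were mostly TF, with an unscaled 31218, 24795 and 22344 on the 3 arrays, against 10371 to 24790 on the others. APOA1 had 1878, 1479 and 1694, against 1092 to 3945. TTR had 266, 461 and 132, against 140 to 640, so the list did not move together. Albumin had 52.9 in normoxia ketamine replicate 2 and at most 24.1 on the others. The only endothelial gene on the array, PECAM1, had a scaled signal of 4440, 6032 and 6551, against 2844 to 7799 over all arrays. Whether other tissue or blood has a part in the PAG signals cannot be read from these sums and was not tested.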

How the data were processed

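Per the file headers, the authors' intensities were corrected on each array for a spatial background trend by Agilent Feature Extraction, with surrogate values for dim spots and no scaling between arrays. The authors' deposited table is on a log2 scale, with its normalization not given in the sources used here, and covers 11705 probes; the submitters' processing notes name limma. Log2 intensities were taken relative to each array's 75th percentile, outlier spots were left out and repeated spots averaged. Probes well above background on at least 3 of 15 arrays (12923) were fitted in limma 3.58.1 (R 4.3.3), with 1 mean per group, 11 residual and 2.4 prior degrees of freedom and two-sided tests at an unadjusted p of 0.05 and after Benjamini-Hochberg adjustment.

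The rule took every probe named PAG, TKDP or PRP2, or described as placental lactogen, and named every one. The most similar named genes were the 10 with the highest r. Members and lists were chosen with earlier results of these data known. List genes were read by their brightest probe, and 1 list gene is not reported here. No gene was named from a probe without an annotation name.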

Additional observations from a re-analysis of the deposited data

Results flagged for a closer look

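In groups of 4 arrays, 35 combinations of a placental probe and a group with a detected array were looked at for 1 array far from the other 3, and 3 stood apart. The combinations were kept because they held a detected array, so no chance rate is given for them. PAG6 at base 920 had 65.5 in hypoxia ketamine replicate 2, against 16.7 to 18 in the other 3. PAG4 at base 853 had 71.7 in hypoxia ketamine replicate 4, on a single spot, with at most 2.38 in the others. PAG11 had 35.1 in hypoxia vehicle replicate 4, where the others had 21 to 24.3.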

How the results depend on the processing

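The counts are of placental probes at the unadjusted threshold, with the share of all probes called under the same setting in parentheses. Slide 1 held normoxia ketamine replicates 1 and 2 and slide 2 held replicates 3 and 4, so counts within a slide cannot be told apart from that split. For ketamine against vehicle in normoxic fetuses the count of 4 (2.69%) became 0 with normexp background correction (0.874%), 7 with quantile normalization (2.71%), 2 of 2 in the deposited table (2.39%), 2 of 3 when a probe had to be detected on all arrays of a group (2.76%), 8 with slide as a block (3.16%), 10 within slide 1 (1.92%), 2 within slide 2 (2.13%), 1 with only the 2 groups compared (5.17%), and 2, both lower, without the arrays with placental lactogen (3.37%). Leaving out 1 array gave 1 to 9 (1.64% to 4.19%). Without normoxia ketamine replicate 1 (3.08%) or 2 (2.09%) the 1 called was lower and 0 were higher. For hypoxia against normoxia in ketamine fetuses the count of 2 (8.67%) became 0 (5.95%), 4 (9.15%), 1 (8.58%), 1 (9.04%), 6 (8.99%), 10 (4.75%), 0 (6.34%), 1 (10.7%) and 1, higher (6.29%), under the same settings in the same order. With 1 array left out it was 0 to 10 (6.48% to 10.5%). The interaction's 0 (3.11%) became 1 with quantile normalization (3.17%), 1 with slide as a block (3.30%) and 10 within slide 1 (1.75%). It was 1, higher, without the arrays with placental lactogen (5.56%) and 0 to 3 with 1 array left out (1.83% to 7.59%). Ketamine against vehicle in hypoxic fetuses became 3 (2.13%) within slide 1, against 0 (5.99%). Hypoxia against normoxia in vehicle fetuses stayed at 0 in every setting run (9.33% to 19% of all probes, the fit within slide 2 aside). The fitted change of PRP2, from which nothing is read, turned to 0.15 with normexp (hypoxia against normoxia, ketamine). PAG11 turned to -0.03 within slide 2 (ketamine against vehicle, normoxia). Normexp moved the median log2 change of all probes to 0.08, against -0.03, for hypoxia with ketamine and to 0.17, against 0.03, for the interaction. The cause was not tested.

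Arrays with the same replicate number correlated between -0.29 and 0.37, over 0.1 in 3 of 21 pairs, so the numbers were not taken as pairs. With a replicate block, the counts became 8 (3.24%) for ketamine in normoxia, 5 (8.95%) for hypoxia with ketamine and 2 (3.29%) for the interaction.

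With the scanner's laxer flag, positive and significant, the detected probes per array became 13, 16, 10 and 11 (hypoxic ketamine), 11, 9, 11 and 16 (hypoxic vehicle), 20, 18, 12 and 11 (normoxic ketamine) and 13, 14 and 9 (normoxic vehicle). With the highest detection limit of all arrays, 18.7, they were 1, 7, 2 and 2, then 2, 1, 2 and 3, then 13, 14, 2 and 2, and 2, 1 and 3. By the laxer flag hypoxia ketamine replicate 2 did not stand apart from the arrays without detected placental lactogen. Keeping outlier spots changed none. Low signal limits these results: 14 of the 26 probes were too dim to be tested.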
